A study of Mus musculus with 23 samples.

Results

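Solute carriers are membrane proteins that move ions, metals, sugars, amino acids, nucleotides and vitamins across the plasma membrane or the membranes of organelles, and their gene symbols begin with Slc and a family number. In the mouse RNA-Seq tables, 370 of 21878 genes carry such a symbol. The solute carriers expressed in neutrophils were chosen by their level in the tissue experiment described below: they are the 137 of them with a mean of at least 1 FPKM, which is reads scaled by transcript length and library depth, in neutrophils of lung, peripheral blood (PB) or BM, leaving out *Slc2a1*, *Slc2a3*, *Slc16a3* and *Slc4a1* by name. A further 229 fell below that level. Of the 137 genes, 4 are named after a carrier without being one: *Slc9a3r1* and *Slc9a3r2*, which encode scaffold proteins, *Slc4a1ap* and *Slc7a6os*.

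Neutrophils are short-lived phagocytes that leave the BM, circulate in blood and are retained in number in the capillaries of the lung. They take up glucose through facilitative transporters, and their phagosomes use metal transporters to starve ingested microbes. Cystine uptake by an exchanger made of the light chain Slc7a11 (xCT) and the heavy chain Slc3a2 supplies cysteine for glutathione. Most carriers of the Slc25 family sit in the inner mitochondrial membrane, and most of the Slc35 family load nucleotide sugars into the Golgi apparatus for glycosylation.

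Expression was measured in 3 experiments. In the tissue experiment, neutrophils came from lung, PB and BM of WT C57BL/6J mice (3 libraries each). The Piezo1 experiment compared WT with *Piezo1*-cKO mice in both lung and PB, with 2 libraries for each of its 4 groups. Whole lungs, not sorted cells, were taken from WT mice and from mice labelled as PMN deletion (3 libraries each). Sorted cells were CD45+CD11b+Ly6G+, and the cKO combined Vav1-iCre with *Piezo1* fl/fl. The general age range of the mice was 7 to 12 weeks, with both sexes. Depletion used 100 µg of anti-Ly6G antibody against an isotype control. The antibody was given 24 hours, or 24 and 48 hours, before analysis, and the schedule for the whole lungs is not given. The paper introduces neutrophil depletion as done at an early age, and no separate age for the whole-lung mice is given. Vav1-iCre acts in the whole hematopoietic lineage, so the deletion was not restricted to neutrophils. The tissue experiment used 3 mice. For the Piezo1 and whole-lung experiments the number of mice behind a library is not given in the sources used here, so their p values measure the spread between these libraries, which may be technical.

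Libraries held 16502142 to 19330763 reads assigned to genes in the tissue experiment and 9621002 to 15034628 in the Piezo1 experiment, where the shallowest was *Piezo1*-cKO PB replicate 1. The depth of the whole-lung libraries is unknown. A list of 8 neutrophil markers summed to 43900 FPKM or more in every sorted library. The lists for platelets, B cells, T and NK cells, dendritic cells and endothelium summed to 6.53 FPKM or less, and those for eosinophils, epithelium and monocytes and macrophages reached 72.4, 24.1 and 174. Erythroid RNA differed in 1 group: the list of 15 erythroid markers, of which 14 were found, summed to 1028 to 1156 FPKM in *Piezo1*-cKO PB and to 42.3 to 43.1 FPKM in WT PB, with 9 and 10 of its genes above 0. PB replicate 3 of the tissue experiment stood farther from its group than any other library, at a chi-square of 23.2 and 38.6 per gene against the other replicates, where the pairs of all other groups gave 1.85 to 4.54. The counts of members apart between lung and PB given below (18 and 24) are the same without it. *Piezo1* itself was covered by 3 to 10 reads in each of the 8 libraries of the Piezo1 experiment, at 0.0301 to 0.0758 FPKM with the genotypes overlapping, so the label could not be checked by it. In the tissue experiment it had 34 to 227 reads.

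The exchanger chain genes *Slc7a11* and *Slc3a2* and the pyrimidine nucleotide carrier gene *Slc25a33* were higher in lung than in PB in both experiments with sorted cells, and the 250 bases before their start sites are shown because these genes lead the account. The sequences are from RefSeq on GRCm38.p6, written 5′ to 3′ on the strand of the gene. Capitals mark matches, on either strand, to the amino acid response element core TGATGNAA, the antioxidant response element core TGACNNNGC, the AP-1 site TGANTCA or the GC box GGGCGG. The *Slc7a11* stretch lies at chr3:50443614-50443863, that of *Slc3a2* at chr19:8713898-8714147 and that of *Slc25a33* at chr4:149774268-149774517, all on the minus strand. Those of *Slc7a11* and *Slc3a2* lie inside the gene spans given below, so the start sites used are not at the outer end of these genes.
Slc7a11: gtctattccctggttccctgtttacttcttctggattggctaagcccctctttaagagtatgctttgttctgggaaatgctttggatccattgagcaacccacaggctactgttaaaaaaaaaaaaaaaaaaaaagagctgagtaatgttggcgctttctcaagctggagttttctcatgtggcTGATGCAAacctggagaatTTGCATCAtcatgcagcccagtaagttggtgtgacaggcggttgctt
Slc3a2: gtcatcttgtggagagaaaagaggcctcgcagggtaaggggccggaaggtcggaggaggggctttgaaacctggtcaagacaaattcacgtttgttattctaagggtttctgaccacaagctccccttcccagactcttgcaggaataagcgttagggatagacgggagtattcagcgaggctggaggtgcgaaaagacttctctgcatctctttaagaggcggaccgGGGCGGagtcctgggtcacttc
Slc25a33: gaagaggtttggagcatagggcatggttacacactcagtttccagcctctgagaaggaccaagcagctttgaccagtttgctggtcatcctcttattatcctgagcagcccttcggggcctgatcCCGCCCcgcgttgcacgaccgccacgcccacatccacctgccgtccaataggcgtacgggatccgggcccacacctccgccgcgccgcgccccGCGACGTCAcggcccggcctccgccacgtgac

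The *Slc7a11* stretch held 2 copies of the amino acid response element core in opposite orientation, which began 66 and 47 bases before the start. The *Slc3a2* stretch held 1 GC box, and that of *Slc25a33* held 1 GC box and 1 antioxidant response element core. Across 32851 promoters of this length in the table, 3.45% held the amino acid response element core, 10.2% the antioxidant response element core, 6.75% the AP-1 site and 32.7% the GC box. RefSeq promoters were at hand for 106 of the 137 genes, and the 4 motifs stood in 4, 18, 10 and 71 of them (3.77%, 17%, 9.43% and 67%). Counted by gene as well, they stood in 3.91%, 11.5%, 7.82% and 35.4% of all 27025 genes with a promoter. That background is not limited to genes expressed in neutrophils, and the differences were not tested. These matches are a description of letters, not of binding.

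The tissue experiment chose the members, so its levels are given as a description without a test. The highest means over its 9 libraries belonged to *Slc2a6*, *Slc15a3*, *Slc11a1*, *Slc9a3r1*, *Slc40a1*, *Slc25a3*, *Slc44a2*, *Slc27a4*, *Slc25a5*, *Slc6a6*, *Slc38a2* and *Slc7a11*, in that order. *Slc2a6* (NCBI gene 227659; chr2:27021363-27028000 on GRCm38), a member of the glucose transporter family, stood at 735 ± 14.3 FPKM in lung, 203 ± 8.88 in PB and 90.8 ± 2.40 in BM (SD, n = 3 each). *Slc15a3* (65221; chr19:10842544-10857915), a lysosomal carrier of histidine and peptides, stood at 613 ± 2.78, 148 ± 10.6 and 104 ± 1.45. *Slc11a1* (18173; chr1:74375014-74386057), the phagosomal divalent metal transporter NRAMP1, stood at 529 ± 14.0, 218 ± 21.6 and 102 ± 2.01. For these 3 genes lung was highest and BM lowest, with no overlap between tissues.

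**Figure D1:**
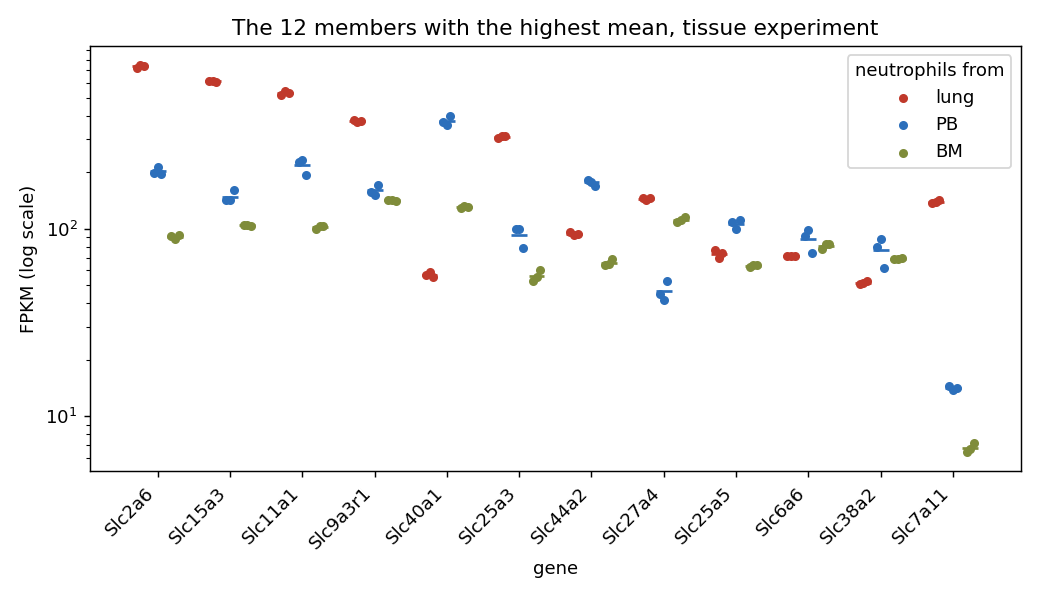
FPKM on a log scale of the 12 members with the highest mean, one point per library of the tissue experiment with a bar at the mean of 3 libraries, in lung (red), PB (blue) and BM (green). *Slc2a6*, *Slc15a3* and *Slc11a1* are highest in lung and lowest in BM, whereas *Slc40a1* is highest in PB at a mean of 375 FPKM.

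Other abundant members were ordered differently. *Slc40a1* (53945; chr1:45908070-45926532), which encodes the iron exporter ferroportin, stood at 375 ± 21.2 FPKM in PB, 130 ± 1.36 in BM and 56.8 ± 1.77 in lung. *Slc25a3* (18674; chr10:91116574-91124046), the mitochondrial phosphate carrier, reached 310 ± 4.96 in lung, 92.3 ± 12 in PB and 56.0 ± 4.07 in BM. *Slc44a2*, a choline transporter, was highest in PB (177 ± 5.80, against 93.8 ± 1.64 in lung and 65.9 ± 2.52 in BM). *Slc27a4*, a fatty acid transport protein, was lowest in PB (46.6 ± 5.75, against 144 ± 1.36 in lung and 111 ± 3.29 in BM). The ADP/ATP carrier *Slc25a5*, the taurine transporter *Slc6a6* and the neutral amino acid transporter *Slc38a2* varied least among these 12, and PB and BM overlapped for *Slc6a6* and *Slc38a2*. The scaffold gene *Slc9a3r1* was at 376 ± 5.01, 160 ± 10 and 142 ± 1.41.

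Of all members, 34 (24.8%) had their highest mean in lung, 44 (32.1%) in PB and 59 (43.1%) in BM. Among the 8561 genes that reached the same level in a tissue the shares were 14.8%, 33.3% and 51.9%. Between lung and PB, 18 members were higher and 24 lower in lung, with the libraries apart and the mean log2(FPKM + 1) differing by over 1. The background shares for all 8561 genes were 6.93% and 17.3%. Between lung and BM 21 were higher and 40 lower (background 9.55% and 34.8%), and between PB and BM 16 were higher and 16 lower (7.58% and 13.7%). The median gene at this level differed by −0.48 on log2 between lung and PB and the median member by −0.45. With FPKM rescaled by the median ratio of genes, the lung and PB split became 25 higher and 9 lower, and that of lung and BM 36 higher and 18 lower, so directions of small differences rest on the scaling. Shares of all genes after rescaling are not given here, so the rescaled counts have no background and are not read as a trait of the members.

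The largest difference between lung and PB on the log2(FPKM + 1) scale was that of *Slc7a11* (26570; chr3:50364936-50499087). Its FPKM was 137, 139 and 142 in the lung libraries, 14.4, 13.8 and 14.1 in PB and 6.43, 6.69 and 7.21 in BM. Lung thus held 9.90 times the PB mean and 20.6 times the BM mean. *Slc3a2* (17254; chr19:8706882-8723369) had 77.2, 76.2 and 76.6 FPKM in lung, 8.97, 9.26 and 8.36 in PB and 7.71, 7.15 and 7.48 in BM. RNA of both chains of the cystine exchanger was therefore highest in lung in every library, and PB stood above BM for both. The sodium-dependent ascorbate transporter *Slc23a2* (54338; chr2:132052496-132145320) had 19.2, 18.8 and 19.2 FPKM in lung, 1.33, 1.57 and 1.08 in PB and 2.12, 2.23 and 2.23 in BM. *Slc35b2*, which carries the sulfate donor PAPS into the Golgi apparatus, was 6.52 times higher in lung than in PB.

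*Slc25a33* (70556; chr4:149744036-149774267) had 84.4, 83.0 and 82.7 FPKM in lung, 30.5, 29.3 and 28.5 in PB and 6.69, 7.61 and 7.66 in BM, with no overlap between tissues. *Slc20a1*, a phosphate importer, was at 30 to 32.5 in lung and 22.2 to 31.3 in PB, which overlap, and at 7.73 to 8.06 in BM. *Slc35e4*, an orphan of the nucleotide sugar family, was highest in PB at 4.78 to 5.80 FPKM, against 1.03 to 1.35 in lung and 0.406 to 0.658 in BM.

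Other members were highest in BM. *Slc17a9*, which loads nucleotides such as ATP into vesicles, was at 37.2, 38.5 and 36.1 FPKM in BM, 3.31, 3.87 and 2.87 in PB and 1.45, 1.72 and 0.860 in lung, so that BM held 27.7 times the lung mean. *Slc25a24*, the mitochondrial ATP-magnesium and phosphate carrier, was at 61.5, 60.8 and 60.2 in BM, 13, 13.1 and 14.5 in PB and 6.16, 5.39 and 6.31 in lung. *Slc31a2*, a copper transporter, was at 78.7 to 82.7 in BM, 9.09 to 9.87 in PB and 15 to 16.2 in lung, and *Slc39a11*, a zinc transporter, at 12.1 to 13, 2.33 to 3.79 and 2.08 to 2.94. The Golgi GDP-fucose transporter *Slc35c1* was at 13.3 to 14.1 in BM, 7.46 to 8.79 in PB and 1.47 to 1.61 in lung. Unlike these, *Slc36a1*, a lysosomal amino acid exporter, had its highest mean in PB. It was at 5.2 to 8.81 in PB and 6.23 to 6.78 in BM, which overlap, and at 0.802 to 1.04 in lung.

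**Figure D2:**
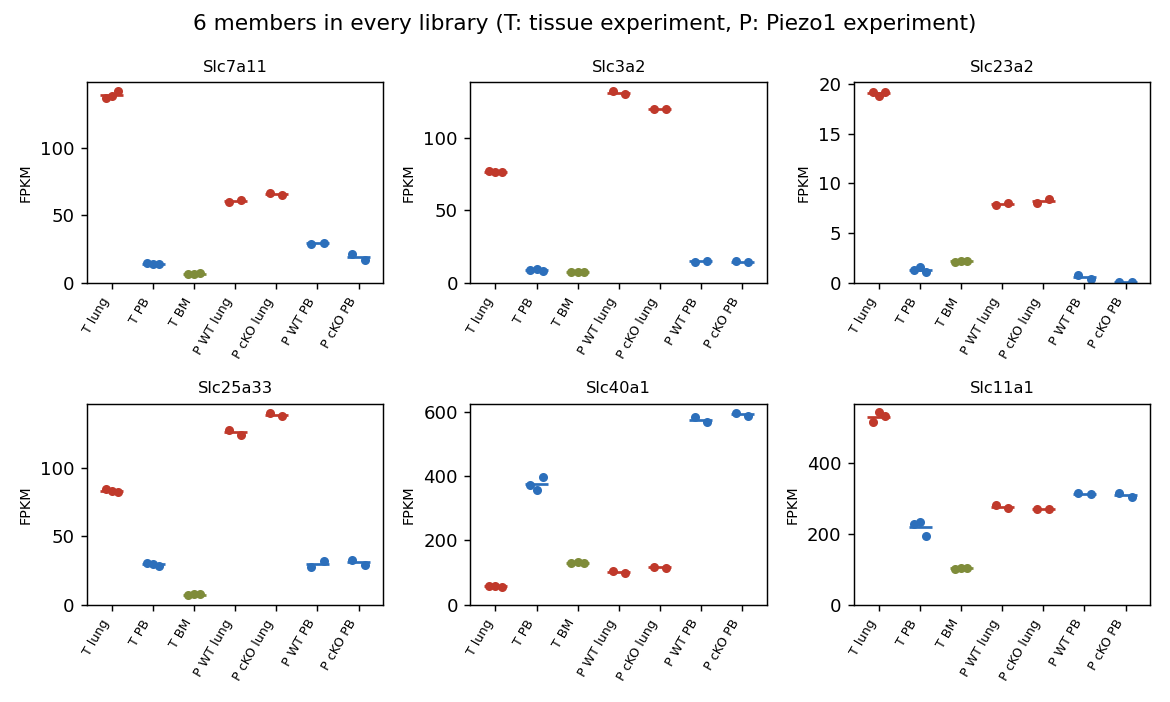
FPKM of 6 members in every sorted library (points; bars are group means), with T for the tissue experiment (n = 3) and P for the Piezo1 experiment (n = 2), in lung (red), PB (blue) and BM (green). *Slc7a11*, *Slc3a2*, *Slc23a2* and *Slc25a33* are higher in lung than in PB throughout and *Slc40a1* is lower, whereas *Slc11a1* has 529 against 218 FPKM in the tissue experiment and 276 against 313 in WT mice of the Piezo1 experiment.

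The rule had a threshold. The members with the lowest maximum were *Slc19a2* (1.01 FPKM in PB), *Slc52a2* (1.02 in BM) and *Slc22a5* (1.09 in PB), and just below it were *Slc46a3* (0.993 in PB), *Slc25a25* (0.802 in lung) and *Slc20a2* (0.786 in PB).

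The WT libraries of the Piezo1 experiment were not used to choose the members and allow a test of lung against PB. Genes with at least 1 FPKM in at least 2 of the 4 libraries were tested with limma on log2(FPKM + 1), and a call needed a Benjamini-Hochberg adjusted p below 0.05 together with a log2 fold change beyond 1 in either direction. Of the 137 members 110 were tested, 12 rose in lung, 22 fell and 76 passed neither way. The background was 7.5% of 7143 genes higher and 26.5% lower, against 10.9% and 20% of the members tested. Of the 12 rises, 3 (*Slc23a2*, *Slc25a42* and *Slc38a1*) reached 1 FPKM in lung libraries only, and of the 22 falls, 3 (*Slc17a5*, *Slc25a30* and *Slc39a9*) in PB libraries only. These 6 passed the filter through the group where they are high, so they could hardly be called the other way and their calls are not counted as support. The median gene changed by −0.62 and the median member by −0.52. After rescaling by the median ratio 20 members were called higher and 11 lower. Shares of all genes after rescaling are not given here either. The rescaled counts, with those by role and compartment below, therefore have no background. Relative to the median gene, *Slc3a2* stood at 3.69 and *Slc40a1* at −1.89, but *Slc35c1* only at −0.64 and *Slc25a11* at −0.40. The 27 untested members included 2 of the 18 that were higher in lung in the tissue experiment and 4 of the 24 that were lower.

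Of 16 tested amino acid and peptide carriers 4 rose, *Slc3a2*, *Slc15a3*, *Slc38a1* and *Slc7a11*, and 1 fell (5 and 1 after rescaling). Among these rises *Slc38a1* reached 1 FPKM in lung libraries only. The background was 7.5% of all genes higher and 26.5% lower, and no role or compartment was tested against it. *Slc3a2* had 132 and 130 FPKM in WT lung and 14.5 and 14.9 in WT PB, a log2 fold change of 3.08 ± 0.04 (SE, n = 2 each, limma adjusted p = 2.11e-09). *Slc7a11* had 60.1 and 61.4 in lung and 29 and 29.8 in PB, a log2 fold change of 1.02 ± 0.04 (limma adjusted p = 4.47e-07). The ratio of means was 8.94 for *Slc3a2* and 2.07 for *Slc7a11*, where the tissue experiment gave 8.65 and 9.90. The ratio of the heavy chain was thus similar in both experiments and that of the light chain was smaller in the Piezo1 experiment, a difference that was not tested.

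*Slc15a3* rose by 1.78 ± 0.06 (limma adjusted p = 1.73e-07), from 12.9 and 11.9 FPKM in PB to 46.1 and 44 in lung. *Slc38a1*, a glutamine transporter, rose by 1.65 ± 0.09 (limma adjusted p = 1.49e-06) between low levels of 0.0800 and 0.133 in PB and 2.51 and 2.45 in lung. *Slc23a2* rose by 2.49 ± 0.12 (limma adjusted p = 1.10e-06), from 0.778 and 0.425 to 7.85 and 7.99. In each of these the PB libraries lay below the lung libraries. *Slc38a1* and *Slc23a2* reached 1 FPKM in lung libraries only, so that order was nearly fixed by the filter and is not counted as support. *Slc27a4* of the vitamin, choline and fatty acid group rose by 1.32 ± 0.04.

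In the mitochondrial group, drawn by family number, 4 of 25 tested members rose and 4 fell (4 and 2 after rescaling). The background was 7.5% of all genes higher and 26.5% lower. *Slc25a42* among the rises reached 1 FPKM in lung libraries only, and *Slc25a30* among the falls in PB libraries only. *Slc25a33* rose by 2.05 ± 0.06 (limma adjusted p = 9.62e-08), with 128 and 124 FPKM in lung and 27.8 and 31.6 in PB. *Slc25a3* rose by 1.79 ± 0.03 (limma adjusted p = 2.84e-09), with 336 and 341 in lung and 96.6 and 97.1 in PB. The acylcarnitine carrier *Slc25a20* rose by 1.62 ± 0.04 and the coenzyme A carrier *Slc25a42* by 1.07 ± 0.09. *Slc25a30* fell by 1.77 (SE 0.11) and *Slc25a45* by 1.71 (SE 0.07), as did *Slc25a37*, the mitochondrial iron importer mitoferrin 1, by 1.30 (SE 0.08) and the oxoglutarate carrier *Slc25a11* by 1.02 (SE 0.05). By the gene ontology terms in the deposited table, 7 of 45 tested members of the plasma membrane rose and 5 fell, with a median of −0.33 (11 and 3 after rescaling). Of 21 of the Golgi apparatus 0 rose and 5 fell, with a median of −0.26 (3 and 2 after rescaling), and the difference between these compartments was not tested. For both the background was 7.5% of all genes higher and 26.5% lower.

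**Figure D3:**
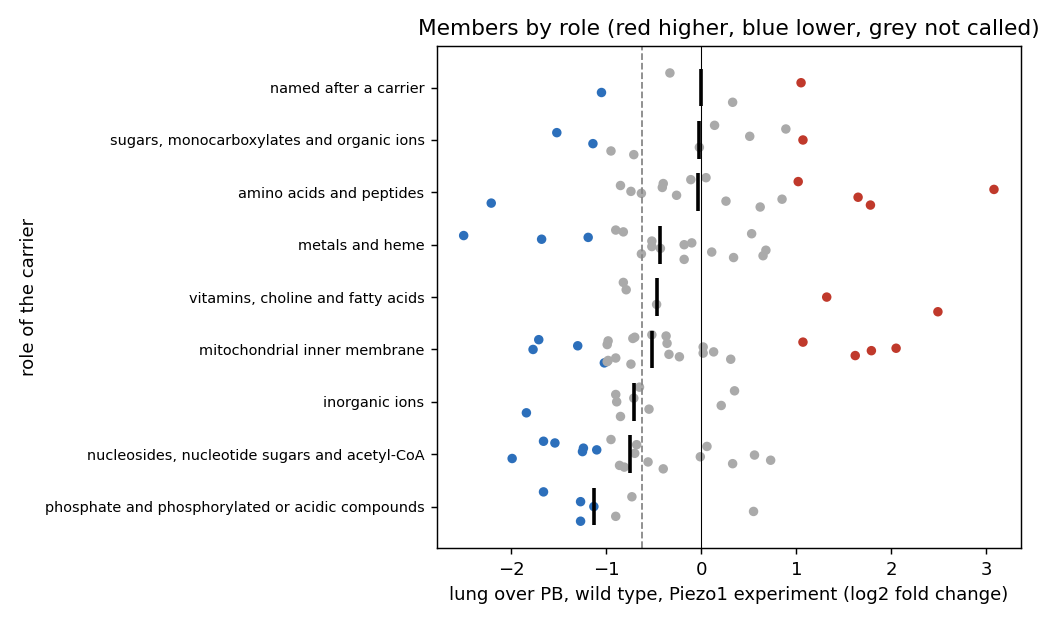
Log2 fold change of lung over PB in WT mice of the Piezo1 experiment for the 110 tested members (points), by role, with a thick black bar at the median of each role and a dashed line at the median of all 7143 genes (−0.62). Red points were called higher and blue points lower, and 6 of 18 nucleoside and nucleotide sugar carriers are blue and 0 red, which became 3 and 2 after rescaling by the median ratio. Of all genes 26.5% were called lower and 7.5% higher before rescaling.

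The largest fall was that of the iron exporter. *Slc40a1* had 103 and 98.4 FPKM in lung and 585 and 567 in PB, and it fell by 2.50 on the log2 scale (SE 0.03, limma adjusted p = 1.87e-09). The other metal carriers called were the zinc transporters *Slc39a7* (−1.68 ± 0.05) and *Slc39a9* (−1.19 ± 0.09), the latter with 1 FPKM reached in PB libraries only. Of 17 tested metal and heme carriers 0 rose and 3 fell (2 and 2 after rescaling), against 7.5% and 26.5% of all genes. *Slc15a4*, an endolysosomal carrier of histidine and peptides and a close relative of *Slc15a3*, fell by 2.21 (SE 0.07, limma adjusted p = 1.50e-07), with 3.23 and 3.08 FPKM in lung and 18.7 and 17.8 in PB. The pair thus moved in opposite directions, as in the tissue experiment, where *Slc15a4* had 3.53 to 4.38 in lung and 15.6 to 17.3 in PB.

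Of 18 nucleoside, nucleotide sugar and acetyl-CoA carriers tested, 6 fell and 0 rose, with a median of −0.76 (3 and 2 after rescaling, with a median of −0.43). The background was 26.5% of all genes lower and 7.5% higher, and the group was not tested against it. *Slc35a5*, the member of this group with the highest level, fell by 1.99 (SE 0.05, limma adjusted p = 3.07e-08), with 21.2 and 22.5 FPKM in lung and 90.8 and 88.6 in PB. *Slc35f5*, *Slc35e4*, *Slc35c1*, *Slc35d2* and *Slc35c2* fell by 1.66, 1.54, 1.25, 1.24 and 1.10. In the group of phosphate and phosphorylated or acidic compounds 4 of 7 fell and 0 rose (1 and 1 after rescaling), against 26.5% and 7.5% of all genes. The falls were the glucose 6-phosphate transporter *Slc37a4* (−1.66 ± 0.12), its relatives *Slc37a2* (−1.27 ± 0.07) and *Slc37a1* (−1.13 ± 0.09) and the lysosomal sialic acid exporter *Slc17a5* (−1.27 ± 0.12). *Slc17a5* reached 1 FPKM in PB libraries only.

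Of 9 inorganic ion carriers 0 rose and 1 fell, *Slc12a9* (−1.84 ± 0.08, limma adjusted p = 5.47e-07), an orphan of the cation and chloride cotransporter family. The background for this and the next group was 7.5% of all genes higher and 26.5% lower. Of 9 sugar, monocarboxylate and organic ion carriers, *Slc16a6* rose by 1.07 ± 0.06, and *Slc22a20* and *Slc16a14* fell by 1.52 and 1.14 (3 higher and 1 lower after rescaling). *Slc2a6*, chosen after its values were seen, had 508 and 502 FPKM in lung and 276 and 269 in PB, a log2 fold change of 0.89 ± 0.02 under the fold threshold (limma adjusted p = 5.38e-08). It passed that threshold after rescaling, at 1.53. *Slc9a3r1* rose by 1.05 ± 0.02 and *Slc7a6os* fell by 1.05 (SE 0.08). *Slc32a1*, the vesicular inhibitory amino acid transporter and the only member of no other group, had 3.10 to 4.06 FPKM in lung in the tissue experiment and was not tested here, at 0.142 to 0.503 FPKM.

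The tissue and Piezo1 experiments share no libraries. Of the 110 members in both comparisons 93 (84.5%) had the same sign, against 90.0% of 6937 genes at the level. Of the 16 tested members that were higher in lung in the tissue experiment 10 were called higher in the WT libraries and 0 lower (62.5%, against 79.5% of 552 genes). Of the 20 that were lower 14 were called lower and 0 higher (70.0%, against 74.9% of 1356 genes). Among the 10, *Slc23a2* and *Slc38a1* reached 1 FPKM in the lung libraries of the WT comparison only, and among the 14, *Slc25a30* and *Slc39a9* in PB only. Their direction was nearly fixed by the filter, so they are not counted as support. Of the 16 and the 20 members the exceptions in sign were *Slc25a24* and *Slc11a1*, both named after their values were seen. *Slc25a24* had 7.32 and 7.33 FPKM in lung and 7.04 and 7.34 in PB, at −1.07 in the tissue experiment and 0.02 in the WT libraries. *Slc11a1* had 280 and 272 in lung and 314 and 312 in PB, a log2 fold change of −0.18 ± 0.02 (limma adjusted p = 2.62e-04), whereas its lung and PB libraries in the tissue experiment lay at 515 to 543 and 193 to 233. With rescaling its value in the WT libraries turned to 0.46.

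Levels of the same tissue and WT label also differed between the experiments. In its imaging the paper calls *Piezo1* fl/fl mice WT, and the labels do not specify the WT mice of the Piezo1 experiment further. *Slc15a3* was 13.6 times higher in WT lung and 11.9 times higher in WT PB in the tissue experiment than in the Piezo1 experiment, *Slc25a37* 11.4 and 6.10 times, and *Slc3a2* was lower there at ratios of 0.584 and 0.604. Levels are therefore compared within an experiment only.

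**Figure D4:**
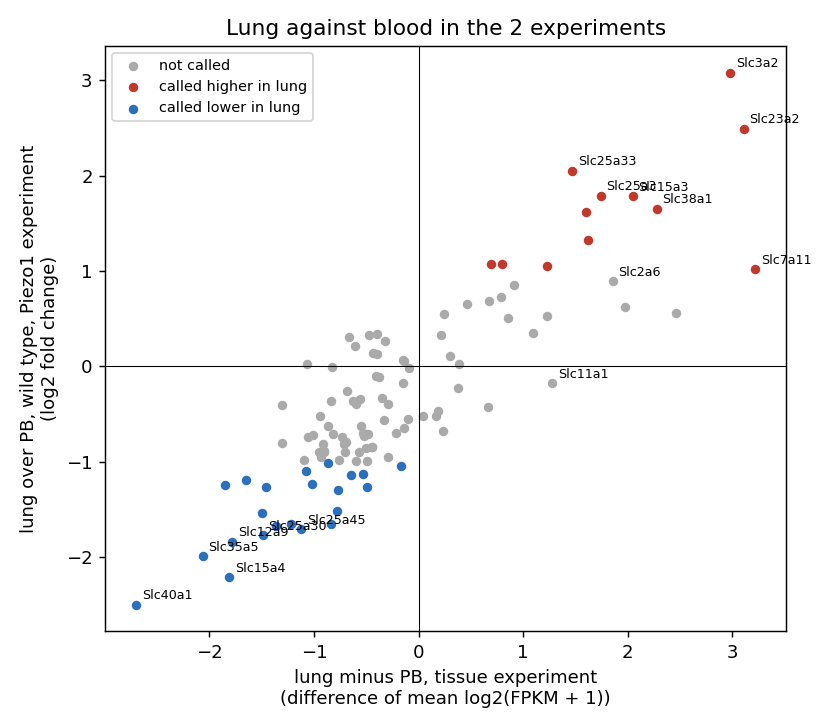
Lung minus PB in the tissue experiment (x axis, difference of mean log2(FPKM + 1), 3 libraries each) against the log2 fold change of lung over PB in WT mice of the Piezo1 experiment (y axis, 2 libraries each) for 110 members. Red and blue points were called higher and lower on the y axis; *Slc3a2* lies near 3 on both axes, *Slc7a11* at 3.22 and 1.02, and *Slc11a1* at 1.28 and −0.18.

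The same comparison in *Piezo1*-cKO mice was made with other libraries of that experiment. Of 109 tested members 12 rose and 20 fell, with a background of 7.93% and 23% of 7163 genes, a median of −0.54 over all genes and −0.43 over members. Rescaling gave 19 higher and 6 lower, again without a share of all genes to set beside them. Of the 12 rises, 4 (*Slc23a2*, *Slc38a1*, *Slc39a6* and *Slc41a1*) reached 1 FPKM in lung libraries only, and of the 20 falls, 3 (*Slc25a28*, *Slc30a7* and *Slc33a1*) in PB libraries only. As in WT, these passed the filter through the group where they are high, and their calls are not counted as support. *Slc23a2* rose by 3.10 ± 0.10 (limma adjusted p = 6.98e-07), with 8.01 and 8.41 FPKM in lung and 0.115 and 0.0294 in PB, the latter from 8 and 3 reads. *Slc3a2* rose by 2.96 ± 0.06 (120 and 120 FPKM in lung, 15.1 and 14.0 in PB), *Slc25a33* by 2.14 ± 0.06 (140 and 138, against 32.6 and 29.1) and *Slc15a3* by 2.08 ± 0.06 (45.4 and 47.1, against 10 and 10.4). *Slc7a11* rose by 1.74 ± 0.10, with 66.5 and 65.4 FPKM in lung and 21.2 and 17 in PB, and *Slc27a4* rose by 1.69 ± 0.05.

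Falls in the cKO were again led by *Slc40a1* (116 and 115 FPKM in lung, 597 and 588 in PB), which fell by 2.35 (SE 0.04, limma adjusted p = 4.87e-08), and *Slc15a4*, which fell by 2.10 (SE 0.10). They were followed by *Slc39a7* (−1.88 ± 0.06), *Slc35c1* (−1.63 ± 0.09), *Slc35a5* (−1.57 ± 0.06) and *Slc33a1*, the acetyl-CoA importer of the endoplasmic reticulum (−1.37 ± 0.09). *Slc33a1* reached 1 FPKM in PB libraries only.

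WT and *Piezo1*-cKO neutrophils were then compared within each tissue, as WT over cKO. In lung, 103 members were tested with limma and 0 were called in either direction, with a background of 0.202% of 6434 genes higher and 0.793% lower. At an unadjusted p below 0.05 there were 59 members (57.3%, against 57.4% of all genes). By the adjusted p alone 53 members passed, 15 higher and 38 lower in WT, which is 51.5% against a background of 50.7%. The median absolute log2 fold change was 0.21 for members and 0.21 for all genes. With a pseudocount of 0.1, or with limma-voom on reads recovered from the FPKM, 0 were called higher and 3 lower. No share of all genes is given for these counts. The smallest adjusted p values belonged to *Slc35a5* (21.2 and 22.5 FPKM in WT, 30.5 and 31.4 in cKO; −0.48 with a 95% interval of −0.61 to −0.36, limma adjusted p = 5.46e-04) and *Slc26a11* (8.07 and 7.87, against 12.3 and 12.5; −0.58 with an interval of −0.73 to −0.43, limma adjusted p = 5.57e-04). In the other direction they were *Slc25a16* (0.52 with an interval of 0.35 to 0.69) and the zinc transporter *Slc30a9* (0.53 with an interval of 0.35 to 0.71). The libraries of the genotypes did not overlap for these 4 genes.

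In PB, 107 members were tested, 1 was called higher and 1 lower in WT, and the background was 1.97% of 7256 genes higher and 1.68% lower. By the adjusted p alone 60 members passed (56.1%, background 49.7%), 27 of them higher and 33 lower in WT. *Slc10a7* (76775; chr8:78509323-78734012), a carrier of the bile acid transporter family involved in calcium handling, had 1.60 and 1.44 FPKM in WT and 0.264 and 0.179 in cKO, a log2 fold change of 1.04 ± 0.10 (limma adjusted p = 5.38e-04). *Slc1a5*, the neutral amino acid transporter ASCT2, had 0.963 and 0.580 in WT and 2.60 and 2.59 in cKO, a change of −1.03 ± 0.13 (limma adjusted p = 0.00110). Both are low genes, at 14 to 119 and 24 to 101 reads per library. Each reached 1 FPKM in only the genotype where it is high. Without either WT PB replicate *Slc10a7*, and without either cKO PB replicate *Slc1a5*, had fewer than 2 libraries at 1 FPKM and was not tested. *Slc10a7* came to 0.99 without cKO PB replicate 2, and *Slc1a5* to −0.87 without WT PB replicate 2, both under the fold threshold, so that each call was made in 1 of the 4 fits that leave out a library.

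Beside these values stands the erythroid RNA of the cKO PB libraries. *Hba-a1*, a hemoglobin gene with a near-identical copy, had 432 and 450 FPKM there and 9.36 and 10.7 in WT PB. The 2 members on the erythroid list were not higher in cKO PB. *Slc25a37* had 3.56 and 4.24 FPKM in cKO PB and 5.82 and 5.65 in WT PB (WT over cKO 0.46, limma adjusted p = 0.00809), and *Slc25a38*, which carries glycine for heme synthesis, 9.34 and 10.7 against 11.4 and 10.5 (0.12 with an interval of −0.09 to 0.33, limma adjusted p = 0.296). The part of erythroid RNA in the other differences was not tested.

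The genotype difference in lung was tested against that in PB by an interaction term over all 8 libraries. Of 120 tested members 6 were called, 1 with a higher and 5 with a lower genotype difference in lung, with a background of 2.57% and 4.29% of 7560 genes. With each library left out the count ranged from 3 to 7, and it was 3 without WT PB replicate 1. By the adjusted p alone 67 members passed (55.8%, background 48.2%). *Slc10a7* had the largest difference, at −1.71 ± 0.15 (limma adjusted p = 9.47e-05). Its FPKM was 0.292 and 0.314 in WT lung and 0.900 and 1.25 in cKO lung, the reverse of the order in PB. *Slc30a5*, a zinc transporter of the secretory pathway, differed by 1.09 ± 0.15 (limma adjusted p = 5.78e-04), with 4.88 and 4.13 FPKM in WT against 2.71 and 2.27 in cKO lung, and 3.49 and 3.22 in WT against 5.15 and 4.62 in cKO PB. The others were the zinc importer *Slc39a1* (−1.21 ± 0.33), the lysosomal glutamine exporter *Slc38a7* (−1.08 ± 0.15), *Slc17a5* (−1.06 ± 0.21) and the thiamine transporter *Slc19a2* (−1.0 ± 0.17). *Slc38a7* reached 1 FPKM in the WT PB libraries only, and without either of them it was not tested. *Slc10a7* and *Slc19a2* reached 1 FPKM in WT PB and cKO lung libraries only. High values in those groups make this term negative, so the filter favored the direction of *Slc38a7*, *Slc10a7* and *Slc19a2*. Their calls are not counted as support.

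**Figure D5:**
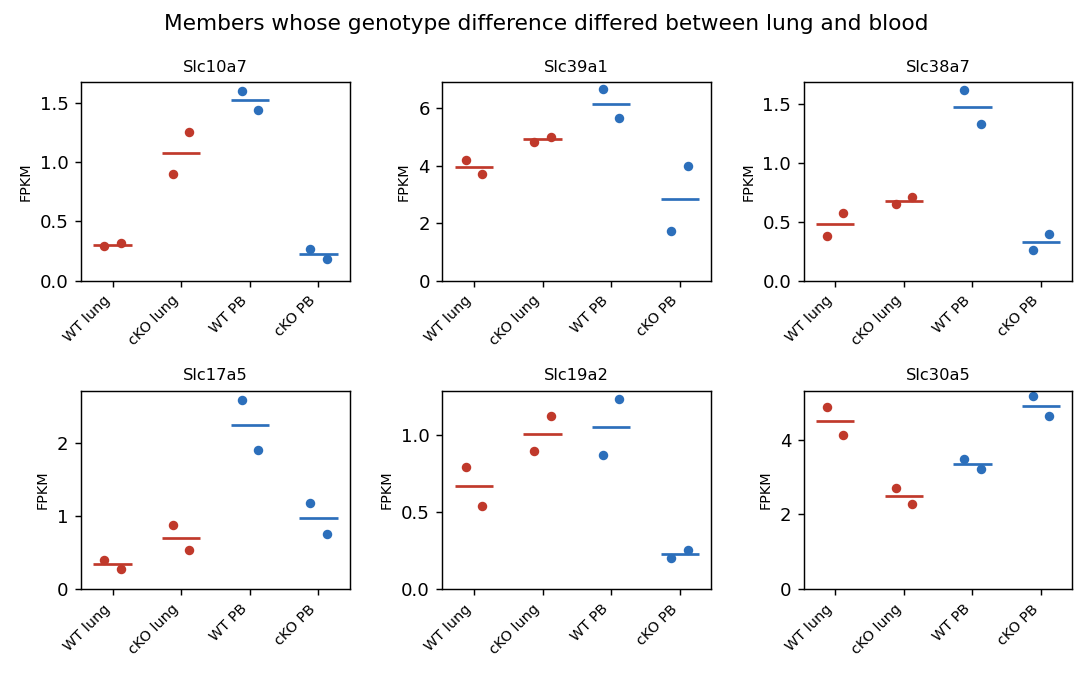
FPKM in the 8 libraries of the Piezo1 experiment (points, with bars at the mean of 2) for the 6 members whose difference between WT and cKO was called as different between lung (red) and PB (blue). *Slc10a7* is lower in WT than in cKO in lung and higher in PB, and *Slc30a5* has the opposite order.

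Carriers and partners without an Slc symbol were followed as a list of 35 genes, of which 32 were found. In WT lung against PB 0 of 24 tested rose and 5 fell, with a median of −0.72 (1 and 4 after rescaling), against a background of 7.5% and 26.5%. The falls were *Mfsd14a* (−2.43 ± 0.07), the organic anion transporter *Slco4a1* (−2.41 ± 0.10), *Mfsd5* (−2.27 ± 0.06), the lysosomal carrier *Spns1* (−1.63 ± 0.10) and *Mfsd11* (−1.43 ± 0.11). The most abundant was the mitochondrial carrier *Ucp2*, with means of 563 FPKM in lung, 727 in PB and 564 in BM in the tissue experiment. In cKO mice 1 of 25 rose and 7 fell, against a background of 7.93% and 23%. Of 25 tested between genotypes 0 were called in lung and 0 in PB, where 16 and 17 passed the adjusted p alone (background 50.7% and 49.7%). The interaction called 1, *Slco3a1*, at 1.14 ± 0.15 (background 2.57% in that direction).

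Whole lung answers another question, whether a carrier's RNA in the organ changes when neutrophils are depleted. In bulk samples, fewer cells of a type and less RNA per cell cannot be told apart. The neutrophil markers summed to 211 to 270 FPKM in control lungs and 43.4 to 126 in depleted lungs. Of 124 tested members 0 were called higher and 0 lower in controls by limma, at an adjusted p below 0.05 and a log2 fold change beyond 0.5, with a background of 0.00715% and 0% of 13990 genes. At an unadjusted p below 0.05 there were 12 members (9.68%, against 11.2% of all genes). The smallest adjusted p values were those of *Slc25a1*, the mitochondrial citrate carrier, and *Slc16a6* on the higher side in controls. *Slc25a1* had 23.3, 26.8 and 28.6 FPKM in control and 17.7, 15.3 and 18.9 in depleted lungs (0.57 with an interval of 0.32 to 0.83, limma adjusted p = 0.155), and *Slc16a6* had 2.08, 2.26 and 2.64 against 1.57, 1.89 and 1.19 (0.39, limma adjusted p = 0.351). On the lower side they were the carnitine transporter *Slc22a5* (−0.29, limma adjusted p = 0.232) and the neutral amino acid transporter *Slc43a2* (−0.26, limma adjusted p = 0.277).

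Some of the carriers that were abundant in sorted neutrophils were at low levels in whole lung. *Slc7a11* had 0.181 to 0.203 FPKM in control and 0.142 to 0.332 in depleted lungs and was not tested. *Slc2a6* had 0.975 to 1.14 and 0.492 to 1.07, and *Slc11a1* 2.24 to 3.09 and 1.48 to 3.00, with overlapping groups. *Slc40a1* had 1.11, 1.31 and 2.06 in control and 0.717, 0.719 and 1.02 in depleted lungs, which do not overlap, at a log2 fold change of 0.44 with an interval of 0.05 to 0.83 (limma adjusted p = 0.390). *Slc3a2*, which many cells of the lung express, had 38.7 to 54.4 and 52.4 to 57.2. *Slc23a2*, at 23.4 to 27.5 FPKM in control and 23.8 to 29.4 in depleted lungs, and *Slc25a3*, at 36.2 to 42.9 and 38.4 to 42.2, were not low there either. None of these 7 genes was named by a rule for this comparison, and they were chosen for their levels in neutrophils.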

How the data were processed

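Bulk RNA-Seq was measured in 17 libraries of sorted neutrophils and 6 of whole lung. The authors trimmed 150 bp paired-end reads with fastp, aligned them to mm10 with HISAT2, counted them with HTSeq and deposited FPKM per gene and library; tool versions are not given in the sources used here, and the libraries are not scaled to a common total. The authors' own fold changes, p and q values stand beside the FPKM and were not used. Samples were grouped by the deposited labels. The members, gene lists and tests were chosen with earlier results of these data known. Spreadsheet dates stood in place of 27 gene symbols, which were restored by NCBI gene identifier, and all 137 members were matched to the whole-lung table by Ensembl identifier. Whole reads were recovered from the FPKM steps for all 21878 genes (a tolerance of 0.02 reads).

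Each tested comparison used the libraries of its own groups (the interaction used all 8) and limma 3.58.1 in R 4.3.3, fitted to log2(FPKM + 1) with eBayes (trend, robust), for those genes with at least 1 FPKM in at least 2 libraries (3 for whole lung), and Benjamini-Hochberg adjustment over all genes tested. Calls needed an adjusted p below 0.05 together with a log2 fold change beyond 1 in size (0.5 for whole lung). A fold change on this scale understates the change of low genes. The tests were tested on simulated data. An exact permutation of 2 against 2 or 3 against 3 libraries cannot pass the 0.05 threshold. Intervals are 95% intervals of the limma fit. The tissue experiment, whose values chose the members, got no test.

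Named genes were the 12 with the highest mean, the 4 largest rises and falls per tissue pair with a higher mean of at least 5 FPKM, up to 6 called members per direction and comparison (or the 2 with the smallest adjusted p), the 3 genes on each side of the threshold, the highest of each role and those on the erythroid list; counted genes of a role are also named. Of the genes this rule gives, 1 is not reported here. Alternatives were a pseudocount of 0.1, no filter, rescaling by the median ratio, the adjusted p alone, the replicate number as a block, limma-voom on recovered reads, all 8 libraries in 1 fit, no fold threshold for non-overlap, and each library left out. Replicates of the 7 groups of sorted neutrophils differed by more than sampling noise, and those of whole lung were not checked. Promoters are from RefSeq on GRCm38.p6, the build of mm10.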

Additional observations from a re-analysis of the deposited data

Results flagged for a closer look

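For 6 members the genotype difference (WT over *Piezo1*-cKO) in lung minus that in PB passed the interaction test of limma, with 2 libraries per group. With each library left out 3 to 7 members passed, with 3 without WT PB replicate 1. The values were −1.71 for *Slc10a7* (limma adjusted p = 9.47e-05), −1.21 for *Slc39a1* (0.0161), −1.08 for *Slc38a7* (6.91e-04), −1.06 for *Slc17a5* (0.00395), −1.0 for *Slc19a2* (0.00168) and 1.09 for *Slc30a5* (5.78e-04). *Slc39a1* had 6.66 and 5.65 FPKM in WT PB and 1.72 and 3.98 in cKO PB, and its value was −0.77 without cKO PB replicate 1. *Slc38a7*, *Slc17a5* and *Slc19a2* had 7 to 130 reads per library. *Slc38a7* reached 1 FPKM in the WT PB libraries only and was not tested without either of them. *Slc10a7* and *Slc19a2* reached 1 FPKM in WT PB and cKO lung libraries only. The filter thus favored the negative direction for *Slc38a7*, *Slc10a7* and *Slc19a2*, and their calls are not counted as support. *Slc17a5* had 0.407 and 0.28 FPKM in WT against 0.877 and 0.536 in cKO lung, and 2.60 and 1.91 in WT against 1.18 and 0.763 in cKO PB. *Slc19a2* had 0.790 and 0.540, 0.894 and 1.12, 0.871 and 1.23, and 0.204 and 0.257. The cKO PB libraries are the ones in which the erythroid markers summed to 1028 to 1156 FPKM, and the part of that RNA was not tested.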

How the results depend on the processing

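Counts of called members moved with the threshold and the scale for low values. Lung against PB in WT called 34 members, 53 with a pseudocount of 0.1, 53 with limma-voom on recovered reads and 96 by the adjusted p alone; in cKO 32 became 49 with limma-voom and 93 by the adjusted p alone. Between genotypes in lung 0 became 3, 3 and 53 under those settings, in PB 2 became 10, 10 and 60, and the interaction moved from 6 to 27, 32 and 67. Members whose libraries did not overlap at any size numbered 115 rather than 42 for lung against PB, 126 rather than 61 for lung against BM and 109 rather than 32 for PB against BM. Apart from the shares by the adjusted p alone given above, no share of all genes stands beside these changed counts. They are therefore not read as a trait of the members. In WT lung against PB, 87.3% of tested members and 89.4% of all genes had an unadjusted limma p below 0.05. In cKO the shares were 86.2% and 85.2%. With each library left out the counts ranged from 30 to 35 in WT and 28 to 30 in cKO for lung against PB, from 0 to 0 and 1 to 3 between genotypes in lung and PB, from 3 to 7 for the interaction (3 without WT PB replicate 1), from 0 to 0 in whole lung, and from 38 to 43, 61 to 64 and 30 to 32 for the tissue pairs. Rescaling by the median ratio moved the median gene of lung against PB from −0.62 to −0.09 in WT and turned *Slc11a1* there to 0.46. Of 484 values of named genes under alternatives, 459 kept direction and call, 16 lost and 8 gained the call, and this 1 reversed. Of 630 tissue differences 551 stayed within the replicate spread, 79 moved beyond it and 0 reversed. Deviations of libraries with the same replicate number correlated weakly, at −0.089 to 0.0994. With so few libraries per group this cannot decide whether equal numbers came from the same mice. With a replicate block the counts were 34 and 32 for lung against PB, 0 and 2 between genotypes, 6 for the interaction and 0 in whole lung. The cause of these shifts was not tested. Depth limits the low genes, since a count of 0 allows up to 3 reads.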
